A study of Mus musculus with 6 samples.

Results

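The genes of the elastic fibre and of its microfibrils were followed in cultured cardiac fibroblasts (CFs), the stromal cells that make most of the extracellular matrix (ECM) of the heart. The group was chosen by name and holds 10 of the 19446 genes in the deposited table: elastin (*Eln*), the fibrillins *Fbn1* and *Fbn2*, the fibulins *Fbln1*, *Fbln2*, *Fbln5* and *Efemp2* (fibulin-4), the microfibril-associated genes *Mfap4* and *Mfap5*, and *Emilin1*. RNA-seq had been performed on 2 groups of 3 libraries, wild type (WT) and CharmeKO, from 5-week-old C57BL/6J mice. CharmeKO mice carry an added polyadenylation signal that ends transcription of the long non-coding RNA *Charme*, and the whole animal carries it, so the knock-out is not restricted to fibroblasts. No other allele and no treatment was named for either group. The cells were outgrowths of atrial tissue pooled from several littermates, grown in medium with serum on fibronectin, so the libraries describe pooled atrial cultures rather than single hearts. The labels do not say whether each library came from a separate culture. The study's statistics section gives at least 3 independent primary isolations for every experiment, without naming the RNA-seq. The p-values given here measure only the spread between these libraries.

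Elastic fibres give arteries, lungs, heart valves and skin their recoil. They have a core of cross-linked elastin, which is secreted as the monomer tropoelastin, and an outer mantle of microfibrils built from fibrillins. Fibulin-4 and fibulin-5 bring tropoelastin and lysyl oxidases together on the microfibril, where lysyl oxidases cross-link elastin, and microfibrils also hold latent TGF-beta through its binding proteins. Fibroblasts and smooth muscle cells are the main producers of these proteins in the cardiovascular system.

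The libraries held 38330019 to 46797446 recovered reads. The entry taken as *Charme* was low in both groups, at 5, 15 and 11 reads for WT 1, 2 and 3 against 0, 6 and 3 for CharmeKO 1, 2 and 3, so the table gives only a weak check of the genotype. The fibroblast label was checked with 10 markers, all measured, whose summed level was 25393 to 53913 CPM (reads scaled to the library total) in WT and 33481 to 44567 CPM in CharmeKO. Most of that sum came from *Col1a1*, *Col1a2*, *Col3a1* and *Vim*, while *Tcf21* had 6.99 to 34.7 CPM in WT and 5.07 to 41.0 CPM in CharmeKO. The fibroblast collagen *Col1a1* had 394739 to 818672 normalised reads in WT and 570333 to 770463 in CharmeKO. In normalised reads, 1 of the 10 markers, *Ddr2*, was lower in CharmeKO without overlap between the groups, as 1.98% of all genes tested were. Endothelial and cardiomyocyte markers summed to at most 8.14 and 24.4 CPM in any library. The cardiomyocyte genes *Myh6*, *Actc1*, *Myl7*, *Nppa* and *Pln* and the endothelial genes *Emcn* and *Tie1* had no entry in the table.

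All levels are in normalised reads, that is, reads divided by a size factor for the library, and levels of different genes are compared only after division by the length of their merged exons in kilobases. On that per-kb scale the group spanned more than 3 orders of magnitude, from *Fbln2* to *Fbn2*. *Fbln2*, a fibulin that binds fibrillin-1, tropoelastin and basement membrane proteins, stood first with 42326 ± 18747 normalised reads per kb (SD over the 6 libraries). Its lowest library lay above the highest library of every other gene in the group. *Fbln2* alone made 51.9% to 77.2% of the summed per-kb level of the 10 genes in a library, and it stood at percentile 99.9 of all 15948 genes tested.

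The main microfibril component *Fbn1* followed with 4768 ± 2009 normalised reads per kb, then *Efemp2* with 4308 ± 812, *Emilin1* with 3453 ± 1327 and *Fbln1* with 2083 ± 1925. Neighbours in this order overlapped in range: *Fbn1*, *Efemp2* and *Emilin1* were each above the next gene in 5 of 6 libraries, and *Fbln1* was above *Fbln5* in 3. *Fbln5* had 1443 ± 525, *Mfap5* 1128 ± 377 and *Mfap4* 685 ± 526 normalised reads per kb. *Eln* was far lower, at 116 ± 136 normalised reads per kb and percentile 45.2, and *Fbn2* was lowest, at 19.5 ± 14.8 and percentile 20.5. *Mfap4* was above *Eln* in all 6 libraries although their ranges overlapped across libraries, and *Eln* was above *Fbn2* in 5. The order in the middle depends on the length used. The merged exons of *Eln*, 8098 bases, include retained introns, and with the longest coding transcript of each gene *Efemp2* took the place before *Fbn1*, *Mfap5* moved to position 5, and *Eln* stood at 245 normalised reads per kb, still at position 9.

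**Figure D1:**
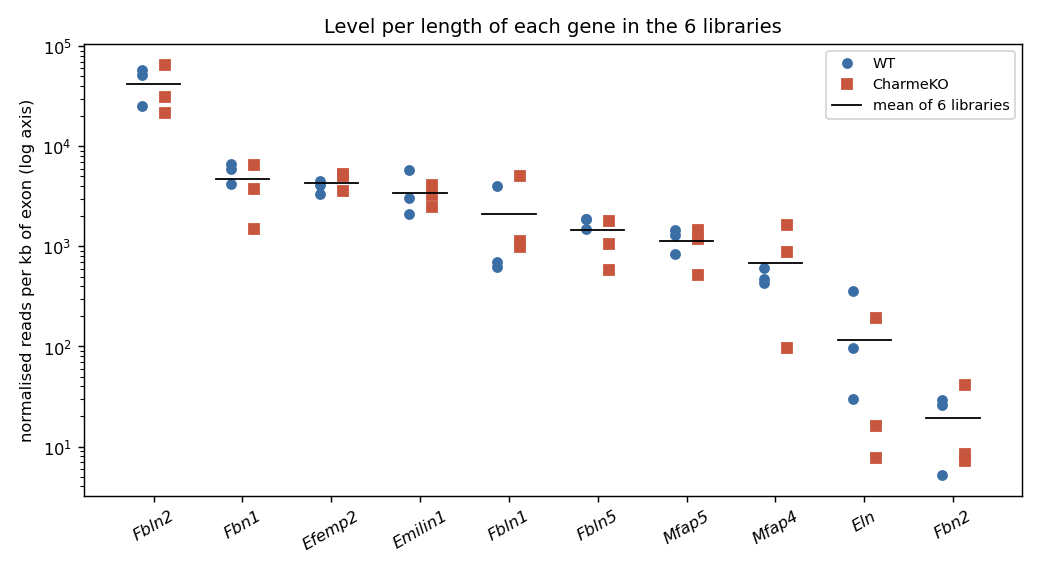
Level of the 10 genes in each library, in normalised reads per kb of merged exon on a log axis, with WT as circles, CharmeKO as squares and a line at the mean of the 6 libraries. Genes are ordered by that mean, from *Fbln2* (42326) to *Fbn2* (19.5), and the WT and CharmeKO points of every gene overlap in range.

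The comparison of CharmeKO with WT asked whether losing *Charme* altered these genes in cultured CFs. All 10 genes passed the filter of at least 10 reads in at least 2 libraries. By limma, 0 of the 10 passed an adjusted p of 0.05, and 0 had an unadjusted p under 0.05. Over all 15948 genes tested, limma called 0 (0%), with 143 genes (0.897%) under an unadjusted p of 0.05. The quasi-likelihood test of edgeR and DESeq2 without a block also called 0 of the 10, while over all genes edgeR called 0 (158 under an unadjusted p of 0.05) and DESeq2 called 8 (0.0502%). The adjusted limma p was 0.9999 for every gene of the group.

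Estimates were lower in CharmeKO for 7 genes and higher for 3, with a median log2 fold change of -0.24 against 0.0022 over all genes tested. None of the 10 had groups that did not overlap, where 1.98% of all genes were lower in CharmeKO without overlap and 2.14% higher. Libraries of the same replicate number deviated from their group means together, so they were also compared as pairs. This was clear for pairs 1 and 2 (r = 0.762 and 0.514 across genes) and weak for pair 3 (0.217). CharmeKO 3 went with WT 2 as much (0.222), so the values do not single out pair 3. *Eln* and *Fbln5* were lower in CharmeKO in all 3 pairs, a pattern shown by 14.0% of all genes, and *Fbln1* was higher in all 3, as 16.4% of all genes were. With the replicate number as a block in limma, *Eln* and *Fbln1* had an unadjusted p under 0.05 (5.37% of all genes), and 0 genes passed after adjustment. With the block in DESeq2, *Eln* alone of the 10 passed, among 64 genes called in all (0.401%).

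**Figure D2:**
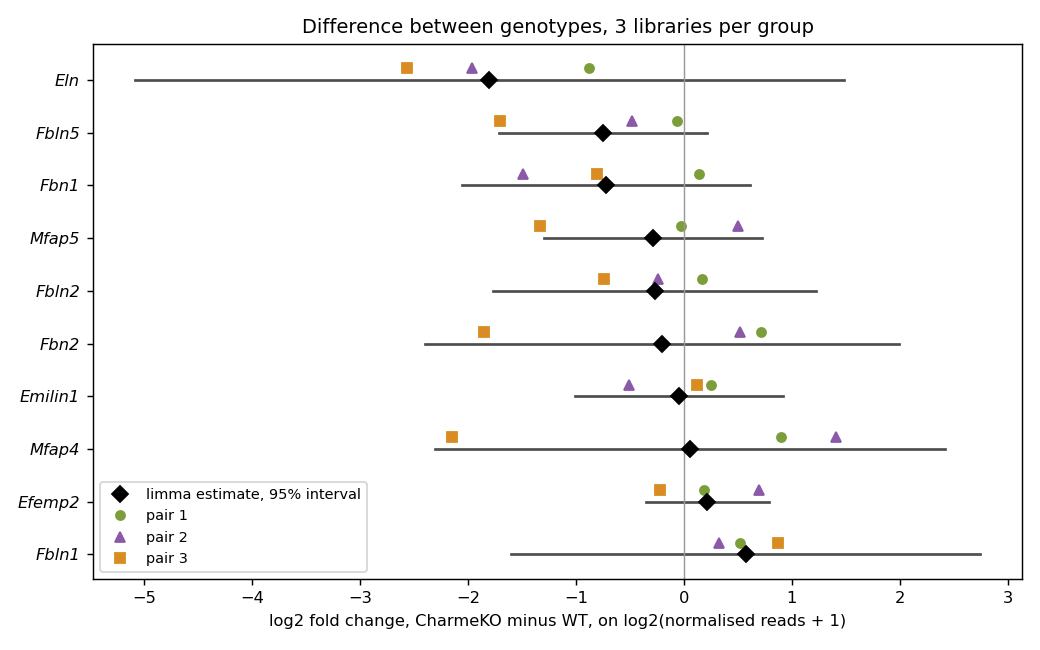
Log2 fold change of each gene, CharmeKO minus WT, on log2(normalised reads + 1), with the limma estimate and its 95% interval as diamond and line and the difference within each same-numbered pair as coloured symbols (3 libraries per group). All 10 intervals include 0, and the symbols of *Eln*, *Fbln5* and *Fbln1* each lie on 1 side of 0.

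*Eln* encodes the core protein of the fibre. The study counted *Eln* among its most significant differentially expressed genes in cultured CFs. It picked *Eln* on that ground from these libraries and remeasured it by RT-qPCR, so its direction here is not independent evidence. The stretch that the study's *Eln* primers amplify is shown because it marks where the RT-qPCR read the transcript that the libraries count over its whole length. It covers bases 1300 to 1446 of a 3853-base coding transcript, lies in exons 19 to 21 of 37, is all coding, and reads in the direction of the transcript, with the primer positions in capitals and the introns removed:
*Eln* amplicon: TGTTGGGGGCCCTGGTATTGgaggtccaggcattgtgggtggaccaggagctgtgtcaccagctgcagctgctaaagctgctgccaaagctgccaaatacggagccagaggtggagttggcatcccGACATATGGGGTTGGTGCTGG
The gene (ENSMUSG00000029675) lies on the minus strand of chromosome 5 at 134702593 to 134747323 in GRCm38, and the amplicon spans 134716472 to 134718067.

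*Eln* had 2879, 245 and 776 normalised reads in WT libraries 1, 2 and 3 and 1562, 61.9 and 130 in CharmeKO libraries 1, 2 and 3. The libraries numbered 1 were the highest of their group and those numbered 2 the lowest, and the groups overlapped, since CharmeKO 1 exceeded WT 2 and WT 3. The means were 1299.6 ± 1393 in WT and 585 ± 847 in CharmeKO (SD, n = 3). The limma log2 fold change was -1.80 (SE 1.37, 95% interval -5.09 to 1.48, adjusted p = 0.9999), with an unadjusted p of 0.232.

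Within pairs the spread was much smaller than between them. Pairs 1, 2 and 3 showed WT above CharmeKO by 1.84-fold, 3.90-fold and 5.91-fold, whereas the 6 libraries spanned 46.5-fold, a wider range than that of 97.9% of genes tested. With the replicate block the SE dropped from 1.37 to 0.353 and the limma p to 0.0052, with an adjusted p of 0.80. The DESeq2 fit with the block gave -1.81 (SE 0.377, adjusted p = 0.0011). Leaving out a whole pair in that fit gave -2.29 (adjusted p = 0.00039) without pair 1, -1.71 (adjusted p = 0.155) without pair 2 and -1.39 (adjusted p = 0.0079) without pair 3, so that the call was lost without pair 2 while the estimate stayed close to that from all pairs. DESeq2 without the block gave -1.16 with adjusted p = 0.9999. The study's methods name DESeq2 and state no block, so its call of *Eln* was not met by that fit here. Why they differ was not tested.

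The summed level of smooth muscle and pericyte markers was, like *Eln*, lower in CharmeKO in every pair. All 15 markers were measured, and the sum was 4064, 1618 and 6489 CPM in WT and 3731, 1109 and 1568 CPM in CharmeKO. Among WT libraries the sum was highest in WT 3 and *Eln* in WT 1, while in CharmeKO both had the same order. Of the 15 genes 9 were lower in all 3 pairs, as 14.0% of all genes were. The 9 include *Kcnj8* and *Abcc9*, which had only 106 and 44 reads in all libraries together. In pair 1 *Kcnj8* hardly differed, at 4.92 normalised reads in WT and 4.81 in CharmeKO. The median log2 fold change of the 15 was -1.60. *Acta2*, smooth muscle actin and also a myofibroblast gene, had 96903, 18192 and 155862 normalised reads in WT and 90719, 5415 and 20212 in CharmeKO. *Myh11*, the smooth muscle myosin heavy chain, had 252, 170 and 1555 in WT and 125, 36.4 and 271 in CharmeKO. Like *Eln*, *Myh11* had been selected by the study from these libraries for RT-qPCR, so its direction is not independent evidence. The other 6 genes were each higher in CharmeKO in 1 pair: *Cnn1* and *Smtn* in pair 1, *Mylk* in pair 2, and *Pdgfrb*, *Notch3* and *Rgs5* in pair 3. *Pdgfrb*, a receptor of pericytes and fibroblasts, had 28861, 26737 and 17317 normalised reads in WT and 24065, 22663 and 27193 in CharmeKO. None of the 15 was at 0 in any library except *Abcc9*, listed at 0 in CharmeKO 3. Fewer smooth muscle or myofibroblast cells and less RNA per cell cannot be told apart in such bulk cultures, and the part of these cells in the *Eln* difference was not tested. The summed level of the 6 mesothelial markers was highest in libraries numbered 1, as *Eln* was, with 310, 39.4 and 64.8 CPM in WT and 345, 91.1 and 21.7 CPM in CharmeKO. Not every marker had that order, since *Wt1* was lowest in WT 1 (213, 1011 and 711 normalised reads in WT 1, 2 and 3). Between the genotypes the mesothelial sum did not follow *Eln*, since it was higher in CharmeKO in pairs 1 and 2.

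**Figure D3:**
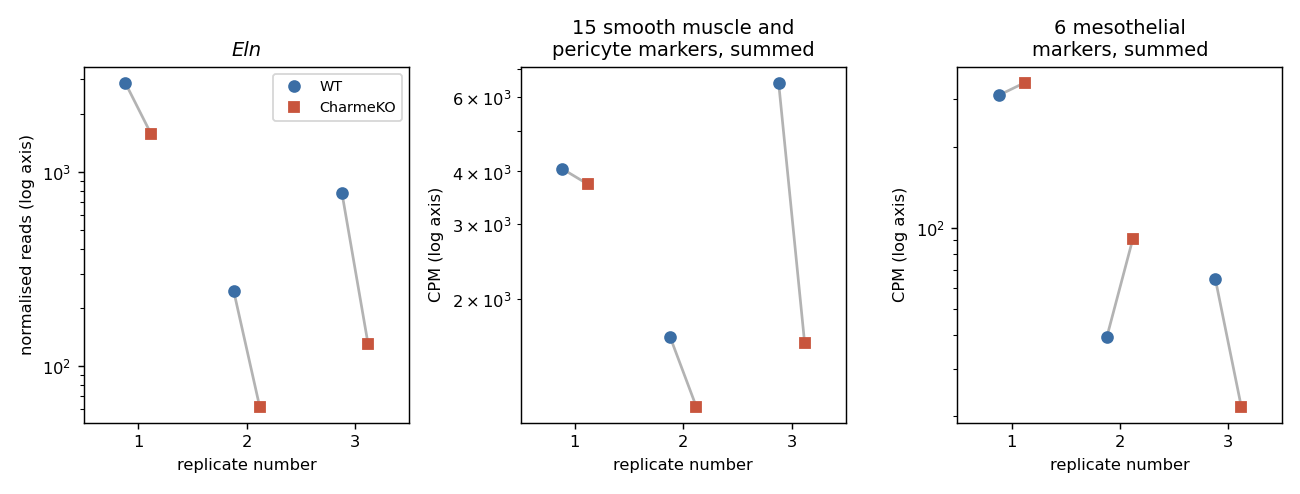
*Eln* in normalised reads, and the summed levels of 15 smooth muscle and pericyte markers and of 6 mesothelial markers in CPM, by replicate number on log axes that differ in span (WT circles, CharmeKO squares, lines joining same-numbered libraries). *Eln* and the smooth muscle sum are lower in CharmeKO in all 3 pairs, while the mesothelial sum is lower in pair 3 only.

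The fibrillins form the microfibril scaffold, with fibrillin-1 as the main form after birth and fibrillin-2 more prominent in development. *Fbn1* (ENSMUSG00000027204, chromosome 2, 125300594 to 125507993, minus strand) had 72346, 50772 and 80291 normalised reads in WT and 79662, 18044 and 45842 in CharmeKO. CharmeKO 1 lay within the WT range and the other two CharmeKO libraries below it. The means were 67803 ± 15275 and 47850 ± 30858, and the log2 fold change was -0.72 (SE 0.558, 95% interval -2.06 to 0.62). Pairs 1, 2 and 3 differed by 0.14, -1.49 and -0.81 log2 units, and without CharmeKO 2 the estimate came to -0.14. The DESeq2 fit with the block called *Fbn1* only when pair 1 was left out (log2 fold change -1.15, adjusted p = 0.0186), against adjusted p = 0.695 with all pairs.

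*Fbn2* (ENSMUSG00000024598, chromosome 18) was far below *Fbn1*, with 68.0, 381 and 341 normalised reads in WT and 112, 548 and 93.9 in CharmeKO. Both libraries numbered 2 were the highest of their group, and the groups overlapped almost fully. The log2 fold change of -0.20 (SE 0.917, 95% interval -2.40 to 2.00) is the mean of pairs that disagree, at 0.72, 0.52 and -1.85, and it changes sign when WT 2, WT 3, CharmeKO 1 or CharmeKO 3 is left out.

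Ratios within a library do not depend on its scaling. The log2 ratio of *Fbn2* to *Fbn1* reads was -10.04, -7.05 and -7.88 in WT and -9.46, -5.04 and -8.92 in CharmeKO. The ratio was higher in CharmeKO in pairs 1 and 2 and lower in pair 3, with a mean difference of 0.52 (exact permutation test over the 6 libraries, two-sided p = 0.8, Benjamini-Hochberg adjusted 0.8 over 2 ratios). Left without WT 1 or CharmeKO 2, the difference turned to -0.34 or -0.86. The log2 ratio of *Eln* to *Fbn1* reads was -4.65, -7.69 and -6.69 in WT and -5.67, -8.16 and -8.45 in CharmeKO. *Eln* was lower relative to *Fbn1* in CharmeKO in all 3 pairs, by 1.02, 0.47 and 1.75 log2 units, while the groups overlapped. The mean difference was -1.08 (-6.35 ± 1.55 in WT and -7.43 ± 1.53 in CharmeKO, SD, n = 3, exact permutation p = 0.5, adjusted 0.8). With 3 against 3 libraries the smallest two-sided p is 0.1, and the exact test of the 3 pairs gave 0.25, the smallest it can give.

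**Figure D4:**
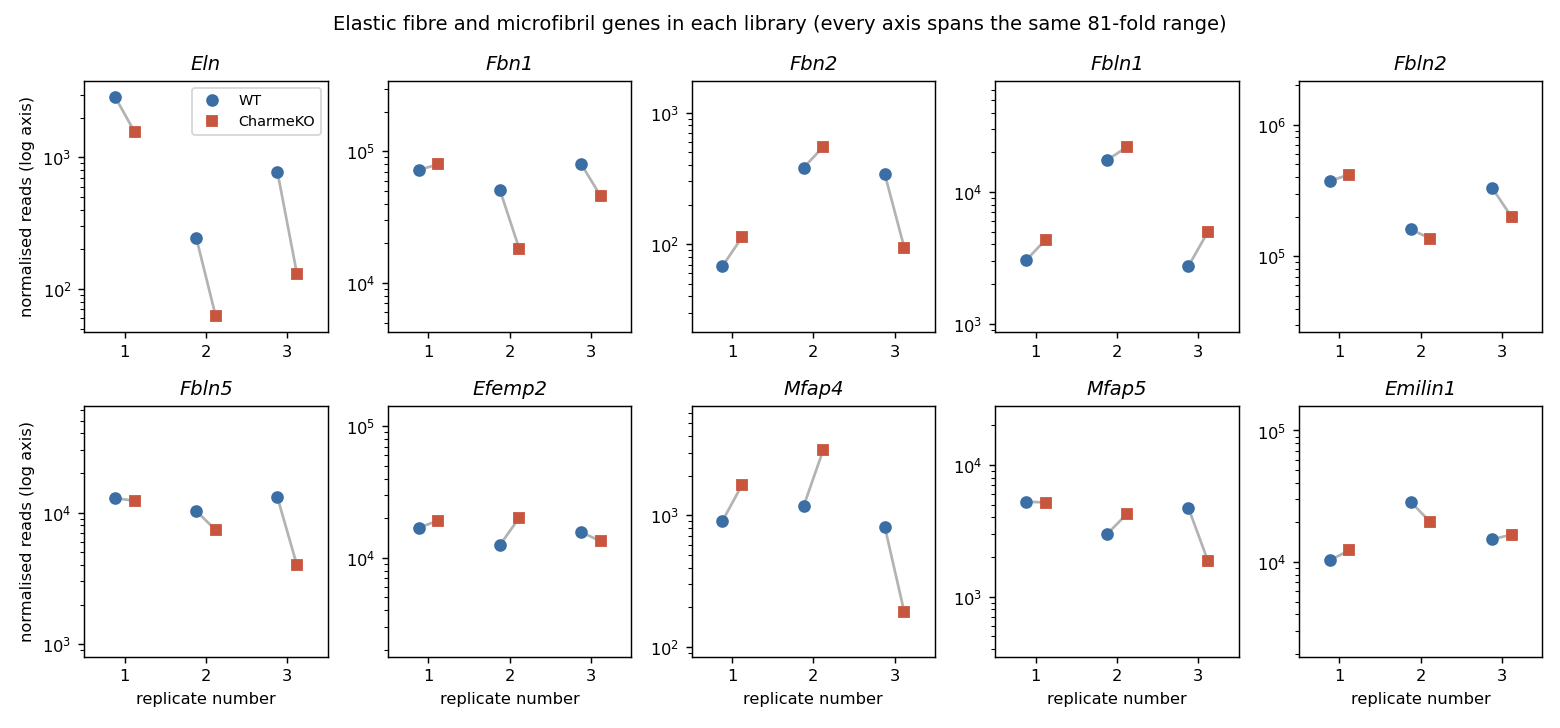
Normalised reads of the 10 genes by replicate number on log axes that each span the same 81-fold range, with WT as circles, CharmeKO as squares and grey lines joining same-numbered libraries. *Eln* and *Fbln5* slope down in all 3 pairs and *Fbln1* up, and *Mfap4* slopes up in pairs 1 and 2 and down in pair 3.

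Fibulin-5 and fibulin-4 are needed for the assembly of elastic fibres, fibulin-5 tethering tropoelastin to microfibrils and cells and fibulin-4 bringing lysyl oxidase to tropoelastin. *Fbln5* (ENSMUSG00000021186, chromosome 12, 101746565 to 101819055, minus strand) had 12860, 10282 and 13034 normalised reads in WT and 12309, 7355 and 3993 in CharmeKO. WT libraries lay within a 1.27-fold range, the tightest WT range of the 10 genes, and CharmeKO libraries spanned 3.08-fold. CharmeKO 1 lay inside the WT range, so the groups overlapped by that library alone. The means were 12058 ± 1541 and 7886 ± 4183. The limma estimate was -0.75 on the log2 scale (SE 0.402, 95% interval -1.72 to 0.21, adjusted p = 0.9999), and its unadjusted p of 0.107 was the lowest in the group. Its pair differences were -0.063, -0.48 and -1.71, so that most of the estimate comes from pair 3, and it came to -0.33 without CharmeKO 3. The smooth muscle and pericyte sum also differed most in pair 3, at 6489 CPM in WT 3 and 1568 CPM in CharmeKO 3, and its part in the *Fbln5* difference was not tested.

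*Efemp2* (ENSMUSG00000024909, chromosome 19, 5473954 to 5482517, plus strand) had 16912, 12518 and 15658 normalised reads in WT and 19193, 20234 and 13406 in CharmeKO. It was the steadiest gene of the group, with a 1.62-fold range over all libraries, and CharmeKO 1 and 2 lay above every WT library while CharmeKO 3 lay inside the WT range. Its log2 fold change of 0.22 (SE 0.237, 95% interval -0.35 to 0.78) had the narrowest interval of the 10.

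*Fbln1*, which binds fibronectin, fibrinogen and elastic fibres, was the one gene higher in CharmeKO in all 3 pairs. *Fbln1* (ENSMUSG00000006369, chromosome 15, 85205949 to 85286535, plus strand) had 3028, 17510 and 2733 normalised reads in WT and 4340, 21984 and 4993 in CharmeKO. Both libraries numbered 2 stood far above the others, so that the groups overlapped although each CharmeKO library exceeded its WT partner. The log2 fold change was 0.57 (SE 0.906, 95% interval -1.60 to 2.74), with pair differences of 0.52, 0.33 and 0.87. The block lowered the SE to 0.134 and the limma p to 0.0102 (adjusted p = 0.80), and DESeq2 with the block gave adjusted p = 0.171. Without CharmeKO 2 and with no block the estimate turned to -0.17.

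*Fbln2* (ENSMUSG00000064080, chromosome 6, 91212455 to 91272540, plus strand) had 372541, 160356 and 331593 normalised reads in WT and 418299, 136213 and 198704 in CharmeKO. Libraries numbered 2 were the lowest of each group, the reverse of *Fbln1*, and the groups overlapped. Its log2 fold change was -0.27 (SE 0.624, 95% interval -1.77 to 1.23), with pair differences of 0.17, -0.24 and -0.74, and it turned to 0.092 without CharmeKO 2.

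The stretches before the transcription starts of *Fbln5* and *Fbln1* are shown because these genes, of those with a printable window, differed in 1 direction in all 3 pairs, and in opposite directions. Each is 250 bases before a start site, 5′ to 3′ on the gene's strand, from RefSeq (GRCm38.p6), with motif matches in capitals:
*Fbln5*, chr12:101819120-101819369, minus strand: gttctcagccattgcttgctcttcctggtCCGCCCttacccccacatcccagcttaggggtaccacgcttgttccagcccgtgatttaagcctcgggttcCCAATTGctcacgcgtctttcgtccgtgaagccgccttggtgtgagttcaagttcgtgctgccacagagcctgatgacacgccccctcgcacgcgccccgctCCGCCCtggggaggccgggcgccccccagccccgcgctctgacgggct
*Fbln1*, chr15:85205699-85205948, plus strand: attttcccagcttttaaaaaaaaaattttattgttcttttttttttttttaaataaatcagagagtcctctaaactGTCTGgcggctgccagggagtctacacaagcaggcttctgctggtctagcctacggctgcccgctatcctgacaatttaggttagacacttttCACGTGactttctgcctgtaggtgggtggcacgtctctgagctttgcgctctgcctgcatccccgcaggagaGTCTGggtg
Motifs were searched on both strands with the letters TATAAA for the TATA box, GGGCGG for the GC box, CANNTG for the E-box, CAGAC for the SMAD element, CCAAT for the box of that name, TGANTCA for the AP-1 element and GGAATG for the TEAD element. The *Fbln5* window held 2 GC boxes, found in 32.7% of all 32851 promoter windows of this length, 1 CCAAT box (33.8%) and 1 E-box (66.2%) that overlaps it. The *Fbln1* window held 1 E-box and 2 SMAD elements (42.2%). Neither of these windows held a TATA box (12.4%), an AP-1 element (6.75%) or a TEAD element (12.6%). Each gene has 1 further annotated start, whose window overlaps an exon and is not printed: that of *Fbln5* held no GC box and 2 SMAD elements, and that of *Fbln1* held 1 GC box, 2 E-boxes and 2 SMAD elements. The matches therefore belong to these windows and not to the genes as a whole, and binding was not measured.

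*Mfap4* and *Mfap5* encode glycoproteins that bind microfibrils, and *Emilin1* encodes a glycoprotein at the interface of elastin and microfibrils. *Mfap4* (ENSMUSG00000042436, chromosome 11, 61485431 to 61488900, plus strand) had 907, 1174 and 818 normalised reads in WT and 1698, 3118 and 184 in CharmeKO. No CharmeKO library lay inside the WT range: CharmeKO 1 and 2 were above it and CharmeKO 3 below. The log2 fold change of 0.056 (SE 0.986, 95% interval -2.31 to 2.42) therefore stands for pair differences of 0.90, 1.41 and -2.14, and it turns to -0.056, -0.33 or -0.77 without WT 3, CharmeKO 1 or CharmeKO 2. Without a block, edgeR and DESeq2 gave 0.79 and 0.78 (adjusted p = 0.9999 by both), far above the limma value, and with the block 0.18 and 0.15. When pair 3 was left out, DESeq2 with the block gave 1.15 (adjusted p = 0.00077). The 6 haematopoietic markers had the same order of pairs, with summed levels of 181, 97.8 and 38.2 CPM in WT and 387, 297 and 17.4 CPM in CharmeKO, higher in CharmeKO in pairs 1 and 2 and lower in pair 3. *Lyz2*, the macrophage lysozyme and the most abundant of them, had 4919, 3181 and 1012 normalised reads in WT and 12791, 10470 and 278 in CharmeKO, and *Ptprc* (CD45) and *Itgam* were listed at 0 in CharmeKO 3. Whether these cells take part in the *Mfap4* values was not tested.

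*Mfap5* (ENSMUSG00000030116, chromosome 6, 122505845 to 122529290, plus strand) had 5280, 2998 and 4717 normalised reads in WT and 5186, 4240 and 1868 in CharmeKO. CharmeKO 3 alone lay outside the WT range. The log2 fold change was -0.29 (SE 0.423, 95% interval -1.30 to 0.73) with pair differences of -0.026, 0.50 and -1.34, and it turned to 0.16 without CharmeKO 3. *Emilin1* (ENSMUSG00000029163, chromosome 5, 30913402 to 30921277, plus strand) had 10313, 28526 and 14893 normalised reads in WT and 12275, 20111 and 16163 in CharmeKO. All CharmeKO libraries lay inside the WT range, which was set by the high WT 2. Its log2 fold change was -0.045 (SE 0.403, 95% interval -1.01 to 0.92), and it turned to 0.36 without WT 2 and 0.14 without CharmeKO 1.

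CharmeKO 3 thus had the lowest value of all 6 libraries for *Fbln5*, *Mfap4* and *Mfap5*. In pair 3 the difference was below 0 for 8 of the 10 genes, the exceptions being *Fbln1* and *Emilin1*, against 3 genes in pair 1 and 5 in pair 2. Such counts for single pairs were not made over all genes tested, so they cannot be called particular to the group.

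How much of each gene's variation went with replicate number and with genotype was described by splitting the variance of log2(normalised reads + 1) over the 6 libraries. Replicate number has 3 levels and genotype 2, so noise alone gives replicate number the larger share on average. Replicate number took the larger share in 9 of the 10 genes, from 26.1% in *Efemp2* to 93.3% in *Fbln1*. Genotype took more in *Fbln5* alone (37.7% against 29.7%). The genotype share was 23.2% in *Fbn1*, 21.2% in *Eln* and 18.5% in *Efemp2*, and at most 7.22% in the others. What was left after both was 0.897% in *Fbln1* and 3.16% in *Eln*, and 55.4% in *Efemp2* and 52.2% in *Mfap5*. The median shares of the 10 genes were 66.7% for replicate number and 6.54% for genotype, against 73.8% and 5.91% over all genes tested. The group varied widely all the same, with a median range over the libraries of 1.93 log2 units against 1.07 over all genes. Wide ranges were not particular to these 10 genes, since the 31 further elastic fibre genes tested below had a median of 2.11.

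**Figure D5:**
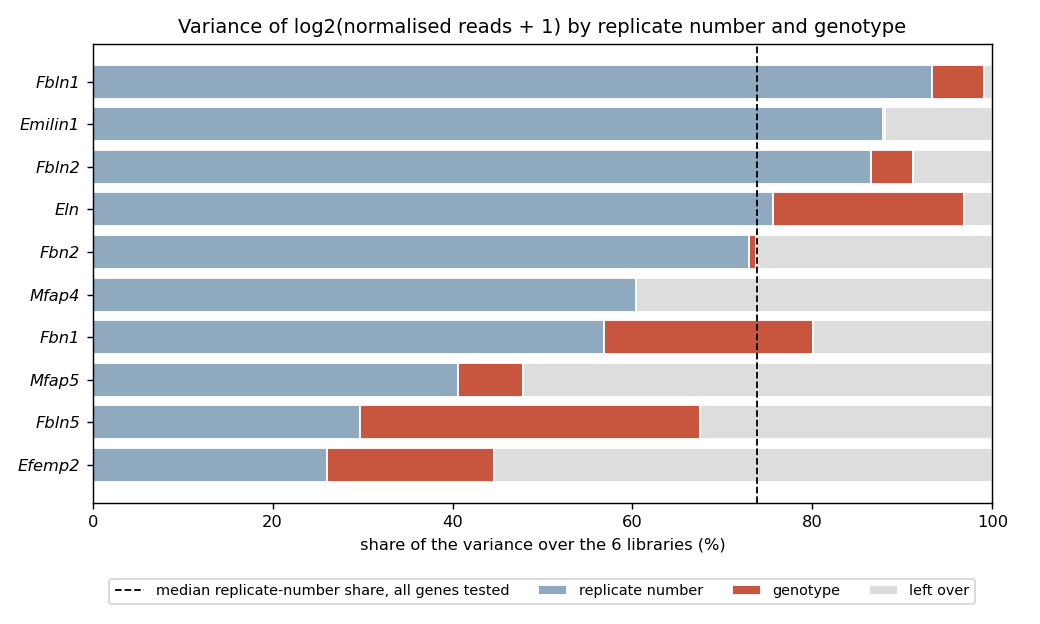
Share of the variance of log2(normalised reads + 1) over the 6 libraries that goes with replicate number (blue), with genotype (red) and with neither (grey), in percent, with a dashed line at the median replicate-number share of all genes tested (73.8%). Replicate number takes the largest share in *Fbln1* (93.3%) and the smallest in *Efemp2* (26.1%), and *Fbln5* has the largest genotype share (37.7%).

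Elastic fibre assembly needs further proteins, and 38 genes in 5 lists were counted, of which 31 could be tested. *Emilin3*, *Mmrn2*, *Vtn*, *Ctsv* and *Elane* had no entry, and *Mmrn1* and *Adamts17*, with 50 and 40 reads in all libraries together, stayed below the filter. By limma 0 of the 31 passed the adjusted threshold and 1 had an unadjusted p under 0.05 (0.897% of all genes), with edgeR giving the same counts. Estimates were lower in CharmeKO for 16 and higher for 15, where 7914 of all genes tested were lower and 8034 higher. DESeq2 with the block called 2, *Adamts6* and *Loxl4*, both lower, against 0.401% of all genes in either direction.

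Among the enzymes and chaperones that cross-link or escort elastin, 6 of 8 had lower estimates and 2 higher. *Loxl4*, a lysyl oxidase-like enzyme, had 2448, 1502 and 2384 normalised reads in WT and 1671, 673 and 1520 in CharmeKO. It was lower in CharmeKO in all 3 pairs with overlapping groups, at a log2 fold change of -0.79 (SE 0.395), and DESeq2 with the block gave -0.79 (adjusted p = 0.0475). Without pairs 1, 2 and 3 that estimate was -0.91, -0.59 and -0.86, and the adjusted p of 0.269, 0.9999 and 0.104 no longer passed. *Loxl3*, a further lysyl oxidase-like enzyme, had a log2 fold change of -0.57 (SE 0.365).

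Of the microfibril-binding ADAMTS and ADAMTS-like genes, 5 of 6 had lower estimates. *Adamts6*, a protease that acts on the microfibril, had 448, 1125 and 882 normalised reads in WT and 336, 275 and 194 in CharmeKO. Its groups did not overlap, and it was lower in all 3 pairs. It was the 1 gene of the 31 without overlap, where 1.98% of all genes were lower without overlap and 2.14% higher. Of the 31 genes, 7 were lower in all 3 pairs and 5 higher, against 14.0% and 16.4% of all genes. Its limma estimate was -1.54 (log2 fold change, SE 0.403, adjusted p = 0.9999), with an unadjusted p of 0.0073, and lay between -1.92 and -1.26 with single libraries left out. DESeq2 with the block gave -1.56 (adjusted p = 0.0499). Without pairs 1, 2 and 3 it gave -2.11, -1.29 and -1.23, with adjusted p-values of 2.5e-06, 0.9999 and 0.316. *Adamtsl2*, which binds fibrillin-1 and latent TGF-beta binding protein 1, had a log2 fold change of 0.78 (SE 0.507) at only 20.7 to 87.5 normalised reads.

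The latent TGF-beta binding proteins, which dock TGF-beta on microfibrils, were split evenly at 2 lower and 2 higher. *Ltbp4*, also a partner of fibulin-5, was higher in all 3 pairs (log2 fold change 0.44, SE 0.391) and *Ltbp1* lower in all 3 (-0.44, SE 0.888). Related glycoproteins had 2 lower and 4 higher estimates, and those with the lowest limma p were *Emilin2* (0.44, SE 0.491) and *Svep1* (0.63, SE 0.721). The highest estimate of that list, and the only one above 0 in all 3 pairs, was that of *Fbln7* (0.996, SE 1.67), named after its values were seen. Of the 7 elastin-degrading enzymes tested, 6 had higher estimates and 1 lower, and 0 had an unadjusted limma p under 0.05. Over all 15948 genes tested, 8034 had higher estimates. The lysosomal cathepsin *Ctsl* was higher in all 3 pairs (0.33, SE 0.244). The gelatinase *Mmp9* had 0.95 (SE 0.902) at only 10.4 to 113 normalised reads. *Mmp9*, like the haematopoietic markers, was higher in pairs 1 and 2 and lower in pair 3. *Mmp12*, *Ctss* and *Ctsk*, named after their values were seen, had that pattern of pairs too.

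The genes most like *Eln* over the 6 libraries, by Pearson's r of log2 values among 11573 genes with a mean of at least 100 normalised reads, were *Adgrg6* (r = 0.997), *Phldb1* (0.994), *Trpc1* (0.993), *Prkab2* (0.992) and *Me1* (0.991). *Adgrg6*, an adhesion G protein-coupled receptor, had 2083, 815 and 1285 normalised reads in WT and 1629, 477 and 708 in CharmeKO, with the order of libraries that *Eln* has. The genes most like *Fbn1* were *Numb* (r = 0.998), *1810013L24Rik* (0.997), *Slc26a2* (0.991), *Acvr1* (0.990) and *Col4a1* (0.986). With 6 libraries that share replicate numbers and 11573 candidates, such values are descriptions only. The basement membrane collagen *Col4a1* was lowest in CharmeKO 2 and next in CharmeKO 3, as *Fbn1* was.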

How the data were processed

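RNA had been extracted from cultured CFs and sequenced as poly(A)-selected directional libraries, 3 WT and 3 CharmeKO, grouped and numbered by their titles. The authors mapped the reads with STAR to the mouse genome (GRCm39 per the methods and labels, which also list GRCh38), took STAR's reverse-strand gene counts on an Ensembl annotation extended by *Charme*, dropped low-count genes and applied DESeq2 size factors. What they deposited is therefore a normalised read signal. The tool versions were not given in the sources used here. Dividing each library by its smallest positive value gave whole reads for 100% of 116676 values (tolerance 1e-06). The only feature without an Ensembl ID was taken as *Charme*, which is an inference.

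Genotypes were compared with limma (mean-variance trend, no other term, two-sided) on log2(value + 1). A gene needed 10 reads or more in 2 or more libraries, which 15948 had, and p-values were adjusted over all of these by Benjamini-Hochberg. Fold changes on this scale understate those of genes with few reads. Ratios were tested by exact permutation. Alternatives were a replicate block, edgeR and DESeq2 on the recovered counts, other pseudocounts, filters and scalings, and leaving out each library. DESeq2 with the block and without each pair was added after seeing the data. Same-numbered libraries deviated from their group means together across genes (r = 0.762, 0.514 and 0.217, all above the set minimum of 0.1). Other numbers gave -0.643 to 0.222. By that minimum the same-numbered libraries were treated as pairs. The 0.222 is that of WT 2 with CharmeKO 3, so pair 3 was not singled out by these values. The labels do not say what a number shares. The 10 genes and all lists were chosen with earlier results of these data known. Named beside the 10 genes are the 2 genes of each partner list with the lowest limma p and any called with all libraries. Also named are the 5 genes most correlated with *Eln* and with *Fbn1*, and *Acta2*, *Myh11* and *Col1a1*. *Lyz2* and other single markers were named after their values were seen. Gene positions and lengths are from GENCODE M21 (GRCm38), matched by Ensembl ID, and are not coordinates of the authors' build. Of the 10 genes, 6 had a window in the RefSeq promoter table. R 4.3.3, limma 3.58.1, edgeR 4.0.16, DESeq2 1.42.0, Python 3.11.15 and matplotlib 3.10.9 were used. Native CFs were not analysed here.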

Additional observations from a re-analysis of the deposited data

How the results depend on the processing

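Same-numbered libraries were taken as pairs, and the replicate block changed calls in DESeq2 only. Genes called went from 0 by limma to 8 by DESeq2 and to 64 with the replicate block, and to 151, 13 and 86 when pair 1, 2 or 3 was also left out. Of the 10 elastic fibre genes DESeq2 with the block called 1 (*Eln*), 2 without pair 1 (*Eln* and *Fbn1*), 0 without pair 2 and 2 without pair 3 (*Eln* and *Mfap4*). Partner genes called were 2 with the block, both lower in CharmeKO, and 1, 0 and 3 without pairs 1, 2 and 3. The 1 called without pair 1 was *Adamts6*, lower, while the 3 called without pair 3 were all higher and are not named here. The limma and edgeR fits with the block called 0, as did every other pseudocount, filter, scaling and single library left out (lowest and highest count 0).

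With single libraries left out, log2 fold changes ran from -3.17 to -0.85 for *Eln*, -1.21 to -0.14 for *Fbn1*, -1.15 to -0.33 for *Fbln5* and 0.091 to 0.40 for *Efemp2*, which kept their direction. Direction turned in at least 1 of these fits for *Fbn2* (-1.003 to 0.26, with 0.24, 0.16 and 0.13 in the other turned fits), *Fbln1* (-0.17 to 1.44), *Fbln2* (-0.72 to 0.092), *Mfap4* (-0.77 to 1.27, also -0.056 and -0.33), *Mfap5* (-0.58 to 0.16) and *Emilin1* (-0.38 to 0.36, also 0.14). In DESeq2 with the block, sign turned without pair 1 for *Mfap4* (-0.37), without pair 2 for *Mfap4* (-0.61), *Efemp2* (-0.015) and *Emilin1* (0.19), and without pair 3 for *Fbn2* (0.61) and *Mfap5* (0.23). The *Fbn2* to *Fbn1* log2 ratio difference of 0.52 ranged from -0.86 to 1.34 and was -0.34 without WT 1, and that of *Eln* to *Fbn1* stayed between -1.96 and -0.23. Over the 3 pairs the exact p was 0.75 for the first ratio and 0.25 for the other. The cause of these shifts was not tested. *Fbn2* and *Eln* rest on few reads in some libraries, down to 69 and 63, and intervals cover the spread of 3 libraries a group.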
